A study of Mus musculus with 9 samples.

Results

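Genes of iron uptake, storage and export were followed in the renal cortex of mice 14 days after ischemia-reperfusion injury. These 9 genes were Tfrc, Trf, Slc11a2, Fth1, Ftl1, Ncoa4, Slc40a1, Cp and Hmox1, chosen by name from the 34669 genes of the expression table, and all of them had enough signal to be among the 15453 genes tested. The libraries fell into 3 groups of 3, all from male wild-type C57BL/6 mice 10 weeks old. In the TJ0113 group both renal pedicles were clamped for 30 min, which is a bilateral ischemia-reperfusion injury (bIRI), and the compound TJ0113 was given by daily gavage from 3 days before the operation to day 14. The vehicle group had the same injury and was gavaged with vehicle over the same period. The sham group had the operation without clamping, and the labels used here state neither its day of sampling nor a gavage. Gavage and clamping therefore cannot be told apart in differences from sham. The series title names ferroptosis, a form of cell death that depends on iron, and the passage from acute to chronic kidney injury.

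A cell takes up iron mainly as transferrin (Trf) bound to transferrin receptor 1 (Tfrc), and the transporter DMT1 (Slc11a2) moves the iron out of the endosome. Iron that is not used is stored in a shell of ferritin heavy and light chains (Fth1, Ftl1), and NCOA4 carries ferritin to the lysosome, where the iron is set free again. Ferroportin (Slc40a1) is the only known exporter of iron in mammals, ceruloplasmin (Cp) oxidises the exported iron so that transferrin can bind it, and haem oxygenase 1 (Hmox1) frees iron from haem. In the kidney, proximal tubule cells take up filtered iron and haem, and macrophages recycle iron from dying cells.

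Several of these messages carry an iron-responsive element, a hairpin bound by the iron regulatory proteins when iron is scarce. Binding in the 5′ UTR blocks translation and binding in the 3′ UTR protects the message from decay, so that ferritin protein can change with no change in its message, whereas Tfrc is controlled through the amount of message. The hairpins are shown because they place the members in which they were found by this rule. The UTRs of the 9 members in GENCODE release M21 (GRCm38) were searched on the sense strand for a loop of CAGTGN, closed by an upper stem of 5 base pairs, with 1 unpaired C below it and at least 4 of 6 pairs in the lower stem, 29 bases in all. 7 hairpins were found in 4 of the 9 members, 3 in a 5′ UTR and 4 in a 3′ UTR, all 4 of the last in Tfrc. The loop is in capitals, and each sequence is the message strand written 5′ to 3′ with T for U.
Fth1, 5′ UTR, chr19:9982732-9982760, plus strand: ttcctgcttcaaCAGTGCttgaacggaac
Ftl1, 5′ UTR, chr7:45459779-45459807, minus strand: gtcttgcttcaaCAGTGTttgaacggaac
Slc40a1, 5′ UTR, chr1:45925465-45925493, minus strand: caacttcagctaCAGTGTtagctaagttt
Tfrc, 3′ UTR, chr16:32631219-32631247, plus strand: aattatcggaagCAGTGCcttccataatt
Tfrc, 3′ UTR, chr16:32631598-32631626, plus strand: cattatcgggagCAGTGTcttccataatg
Tfrc, 3′ UTR, chr16:32631663-32631691, plus strand: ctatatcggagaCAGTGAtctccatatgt
Tfrc, 3′ UTR, chr16:32631710-32631738, plus strand: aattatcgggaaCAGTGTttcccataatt
The same search matched a 5′ UTR of 6 and a 3′ UTR of 17 among 21901 protein-coding genes, which is 0.0274% and 0.0776%, with the members above counted among them. In the other 5 members no stretch of the UTRs searched met this whole pattern, which leaves out hairpins of a looser shape. These members, Slc11a2 among them, were therefore not shown to lack such an element.

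Values are FPKM (fragments per length of gene and per library total) as the authors deposited them, and errors are the SD of 3 libraries unless stated. A log2 difference is that of log2(FPKM + 1), fitted by limma over all 9 libraries with its SE, and is given relative to the median gene of its comparison. The median gene was 0.26 higher in TJ0113 than in sham and 0.30 higher in vehicle than in sham, and 0.03 lower in TJ0113 than in vehicle. Adjusted p-values are limma's with Benjamini-Hochberg adjustment over all genes tested, they refer to the values as deposited, and 0.05 was the threshold. They reflect the spread between these samples only, since the labels do not state that each library is a separate mouse. The SD between libraries of a group, as the median over genes of log2(FPKM + 1), was 0.19 in TJ0113, 0.27 in vehicle and 0.09 in sham.

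Against sham, the members that passed in both injured groups were those of export and haem: Cp, Slc40a1 and Hmox1 rose. Trf rose in the vehicle group, Ncoa4 fell in the TJ0113 group, and the other 4 members, both ferritins among them, passed in no comparison. In TJ0113 against sham 3 members rose and 1 fell, while 34.8% of all genes tested passed in either direction (28.9% higher and 5.92% lower). In vehicle against sham 4 members rose and 0 fell, while 36.7% of all genes tested passed (31.3% higher and 5.42% lower). The median difference of the 9 members, relative to the median gene, was 0.22 in TJ0113 against sham and 0.05 in vehicle against sham. Calls were about as common among the members, at 4 of 9 in each comparison, as among all genes. Every TJ0113 library lay above every sham library for 5 members and below for 2, against 50.5% and 14.6% of all genes tested (65.1% in either direction). Every vehicle library lay above every sham library for 3 members and below for 0, against 45.9% and 10.9% of all genes tested (56.8% in either direction). In TJ0113 against vehicle limma called 0 members and 0% of all genes.

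**Figure D1:**
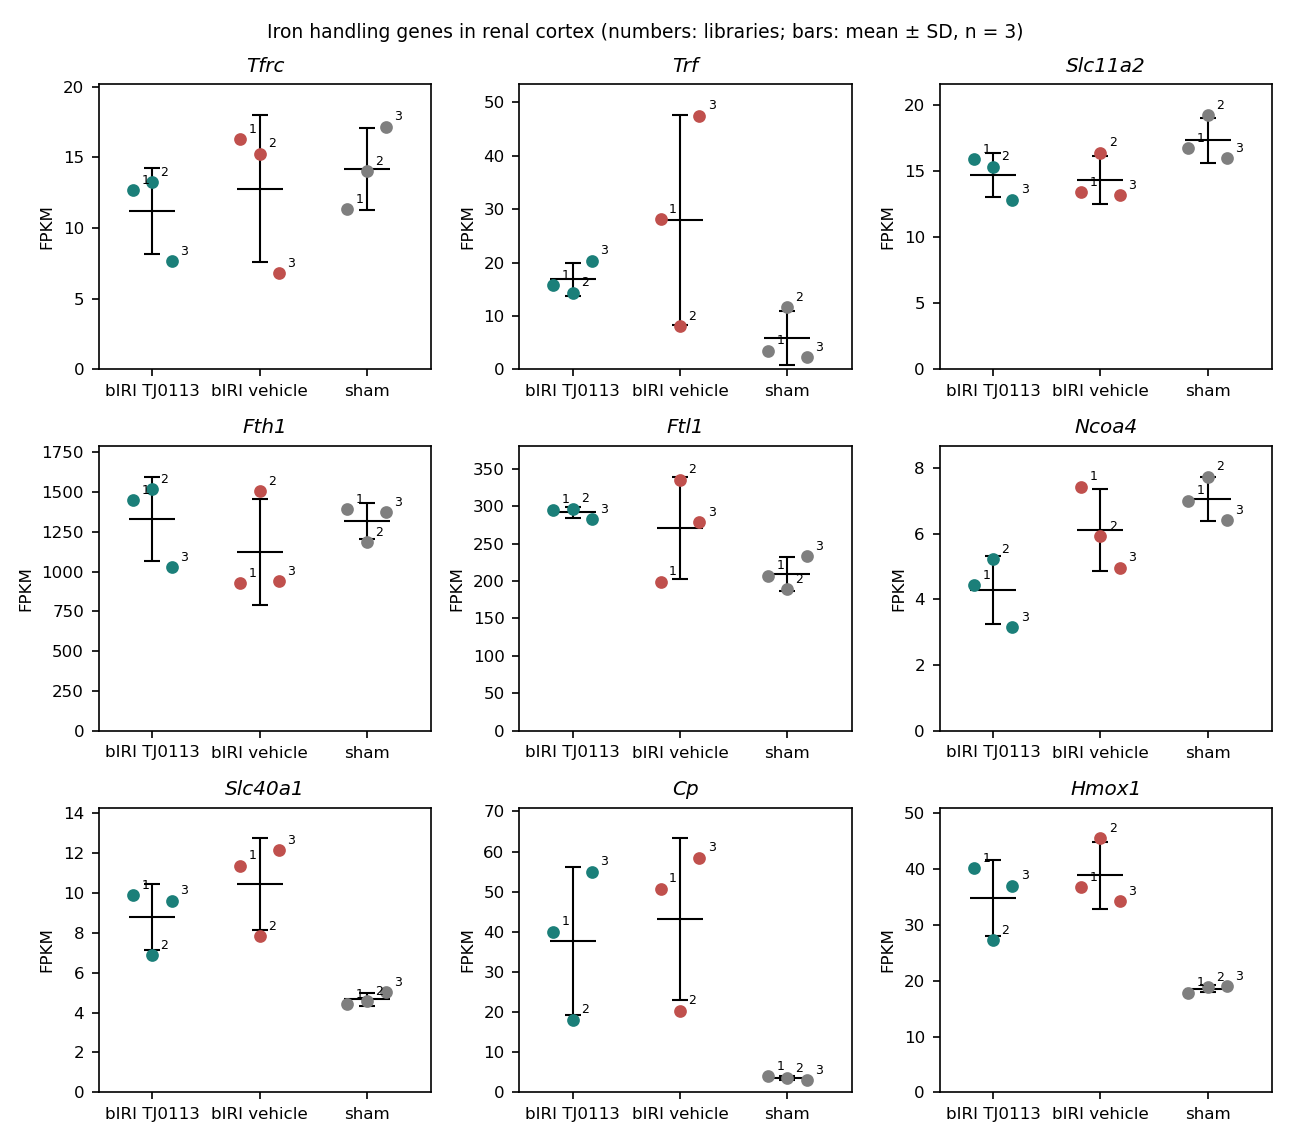
FPKM of the 9 iron handling genes in each library (points, numbered by library), with the mean and SD of each group of 3 (bars). Cp, Slc40a1 and Hmox1 lie higher in every TJ0113 and vehicle library than in any sham library, and the TJ0113 and vehicle groups overlap in every panel.

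Of the uptake genes, Tfrc (ENSMUSG00000022797, chr16:32608920-32632794, plus strand) encodes transferrin receptor 1. Its level was 12.7, 13.2 and 7.67 FPKM in the TJ0113 libraries, 16.3, 15.3 and 6.81 FPKM in the vehicle libraries, and 11.3, 14.0 and 17.2 FPKM in the sham libraries. The lowest values were those of library 3 of each injured group, and all 3 groups overlapped. Its mean was 11.2 ± 3.07 FPKM in TJ0113, 12.8 ± 5.20 FPKM in vehicle and 14.2 ± 2.92 FPKM in sham (n = 3 each). The log2 difference was -0.59 ± 0.32 in TJ0113 against sham (limma, adjusted p = 0.422) and -0.50 ± 0.32 in vehicle against sham (adjusted p = 0.614), and neither passed.

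Trf (ENSMUSG00000032554, chr9:103204001-103230444, minus strand) encodes transferrin, the iron carrier of plasma, which is made chiefly by the liver. Its level was 15.7, 14.4 and 20.4 FPKM in TJ0113, 28.1, 8.15 and 47.5 FPKM in vehicle, and 3.52, 11.6 and 2.36 FPKM in sham. Vehicle library 2 lay below sham library 2, so these 2 groups overlapped, whereas every TJ0113 library lay above every sham library. The mean was 16.8 ± 3.14 FPKM in TJ0113, 27.9 ± 19.7 FPKM in vehicle and 5.83 ± 5.04 FPKM in sham (n = 3 each). Trf rose in vehicle against sham by a log2 difference of 1.73 ± 0.62 (limma, adjusted p = 0.0328), and its difference of 1.35 ± 0.62 in TJ0113 against sham did not pass (adjusted p = 0.0664).

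The Trf values are set beside 2 sets of markers, whose part in the result was not tested. Sham library 2, the highest of its group, also held far more adipocyte message. The summed level of Adipoq, Plin1 and Ucp1 was 38.8 FPKM there and at most 0.256 FPKM in the other sham libraries. That sum was 0.0914, 5.63 and 0.217 FPKM in TJ0113, where library 2 had the highest sum and the lowest Trf. In vehicle it was 9.90, 0.0211 and 9.30 FPKM, with Plin1 and Ucp1 at 0 in vehicle library 2. Without sham library 2 the log2 difference of Trf in vehicle against sham was 2.30 (limma, adjusted p = 0.0477). Within the injured groups Trf was highest in vehicle library 3 and lowest in vehicle library 2, and so was the summed level of 9 macrophage markers. That sum was 607, 509.9 and 1035 FPKM in TJ0113, 953, 308 and 1808 FPKM in vehicle, and 41.7 to 60.8 FPKM in sham. Of the 9 macrophage markers, 8 rose in each injured group against sham and 0 fell, and none was at 0 in any library. In bulk tissue, fewer cells of a type and less message per cell cannot be told apart, and this holds for every member below.

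The call for Trf in vehicle against sham was lost with median-ratio scaling (limma, adjusted p = 0.0580), quantile normalization (0.0566), no filter on low values (0.0850) or a fit of these 2 groups alone (0.0598). It was also lost without sham library 1 (adjusted p = 0.0903), sham library 3 (0.111), vehicle library 1 (0.0918) or vehicle library 3 (0.108). In TJ0113 against sham it was gained in a fit of these 2 groups alone (adjusted p = 0.0227) and without vehicle library 2 (0.0208) or vehicle library 3 (0.0382).

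Slc11a2 (ENSMUSG00000023030, chr15:100387898-100425072, minus strand), which encodes DMT1, had 15.9, 15.3 and 12.8 FPKM in TJ0113, 13.4, 16.4 and 13.2 FPKM in vehicle, and 16.7, 19.2 and 16.0 FPKM in sham. Every TJ0113 library lay below every sham library, by as little as 15.93 against 15.98 FPKM for the closest pair, and vehicle library 2 reached into the sham range. The mean was 14.7 ± 1.64 FPKM in TJ0113, 14.3 ± 1.79 FPKM in vehicle and 17.3 ± 1.71 FPKM in sham (n = 3 each). The log2 difference relative to the median gene was -0.49 ± 0.14 in TJ0113 against sham and -0.56 ± 0.14 in vehicle against sham. Neither passed on the values as deposited (limma, adjusted p = 0.215 and 0.153). With median-ratio scaling, which removes most of the shift of the median gene, both passed (adjusted p = 0.0405 and 0.0354), and the vehicle difference also passed with quantile normalization (0.0419) and without vehicle library 2 (0.0495).

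Of the storage genes, Fth1 (ENSMUSG00000024661, chr19:9980598-9985098, plus strand) encodes the ferritin heavy chain, which oxidises iron as it enters the shell. It had the highest level of the 9 members in every library. Its level was 1451, 1518 and 1030.1 FPKM in TJ0113, 927, 1505 and 939 FPKM in vehicle, and 1393, 1187 and 1376 FPKM in sham. In each injured group at least 1 library lay above and at least 1 below all 3 sham libraries. The mean was 1333 ± 265 FPKM in TJ0113, 1124 ± 330.3 FPKM in vehicle and 1318 ± 114 FPKM in sham (n = 3 each). The log2 difference was -0.26 ± 0.30 in TJ0113 against sham (limma, adjusted p = 0.998) and -0.56 ± 0.30 in vehicle against sham (adjusted p = 0.491), with 95% intervals of -0.94 to 0.41 and -1.24 to 0.12.

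Ftl1 (ENSMUSG00000050708, chr7:45457944-45459884, minus strand) encodes the ferritin light chain, which helps the iron core to form. Its level was 295, 297 and 283 FPKM in TJ0113, 199, 335 and 279 FPKM in vehicle, and 207, 189 and 233 FPKM in sham. The TJ0113 libraries lay close together and above every sham library, and vehicle library 1 lay within the sham range. The mean was 292 ± 7.72 FPKM in TJ0113, 271 ± 68.3 FPKM in vehicle and 209.6 ± 22.3 FPKM in sham (n = 3 each). The log2 difference was 0.22 ± 0.21 in TJ0113 against sham (limma, adjusted p = 0.0983) and 0.05 ± 0.21 in vehicle against sham (adjusted p = 0.209), and neither passed. The TJ0113 difference passed in a fit of these 2 groups alone (adjusted p = 0.0239) and without vehicle library 2 (0.0468), and the sign of the vehicle difference turned with median-ratio scaling (-0.072). Other gene models with stretches nearly identical to Ftl1 could share its reads, among them Gm10252, which overlaps Ftl1 on the opposite strand, and the 7 of them in the table summed to 2.16 to 2.65% of the Ftl1 level in TJ0113, 2.62 to 4.56% in vehicle and 3.90 to 5.09% in sham.

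The ratio of heavy to light chain message is not altered by a factor that scales a whole library. Fth1 over Ftl1 was 4.91, 5.12 and 3.64 in TJ0113, 4.65, 4.49 and 3.37 in vehicle, and 6.73, 6.29 and 5.90 in sham. Every library of both injured groups lay below every sham library, and the TJ0113 and vehicle groups overlapped. The mean ratio was 4.56 ± 0.798 in TJ0113, 4.17 ± 0.701 in vehicle and 6.30 ± 0.413 in sham (n = 3 each). An exact two-sided permutation test gave p = 0.1 for each injured group against sham, which is the smallest p that 3 libraries against 3 allow, and p = 0.5 for TJ0113 against vehicle. This ratio was examined after the levels of both genes had been seen.

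Ncoa4 (ENSMUSG00000056234, chr14:32159865-32179855, plus strand) encodes the receptor that takes ferritin to the lysosome. Its level was 4.45, 5.23 and 3.17 FPKM in TJ0113, 7.43, 5.93 and 4.97 FPKM in vehicle, and 7.01, 7.74 and 6.42 FPKM in sham. Every TJ0113 library lay below every sham library, and vehicle library 1 lay within the sham range. The mean was 4.28 ± 1.04 FPKM in TJ0113, 6.11 ± 1.24 FPKM in vehicle and 7.06 ± 0.661 FPKM in sham (n = 3 each). Ncoa4 fell in TJ0113 against sham by a log2 difference of -0.89 ± 0.18 (limma, adjusted p = 0.0287), to 0.607 times the sham mean. In vehicle against sham the difference was -0.49 ± 0.18 and did not pass (adjusted p = 0.408). The TJ0113 call was lost with no filter on low values (adjusted p = 0.0643) and without TJ0113 library 1 (0.0602), TJ0113 library 3 (0.0993), sham library 1 (0.0748), sham library 2 (0.103) or sham library 3 (0.0682).

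The Ncoa4 level carries a further limit. Gm6768, a processed pseudogene at chr12:119260978-119262855 on the plus strand, matches the Ncoa4 message at 99.9% of 1878 aligned bases, and the 2 genes had nearly the same FPKM in each library. Gm6768 was at 3.97, 5.35 and 2.84 FPKM in TJ0113, 7.90, 5.94 and 5.28 FPKM in vehicle, and 7.48, 9.05 and 6.36 FPKM in sham. Its ratio to Ncoa4 ran from 0.893 to 1.17 over the 9 libraries. Gm6768 also fell in TJ0113 against sham, by -1.05 ± 0.21 on the log2 scale (limma, adjusted p = 0.0225). The labels used here do not say how reads that fit both places were counted, so the 2 genes cannot be told apart and their calls are not independent of each other.

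**Figure D2:**
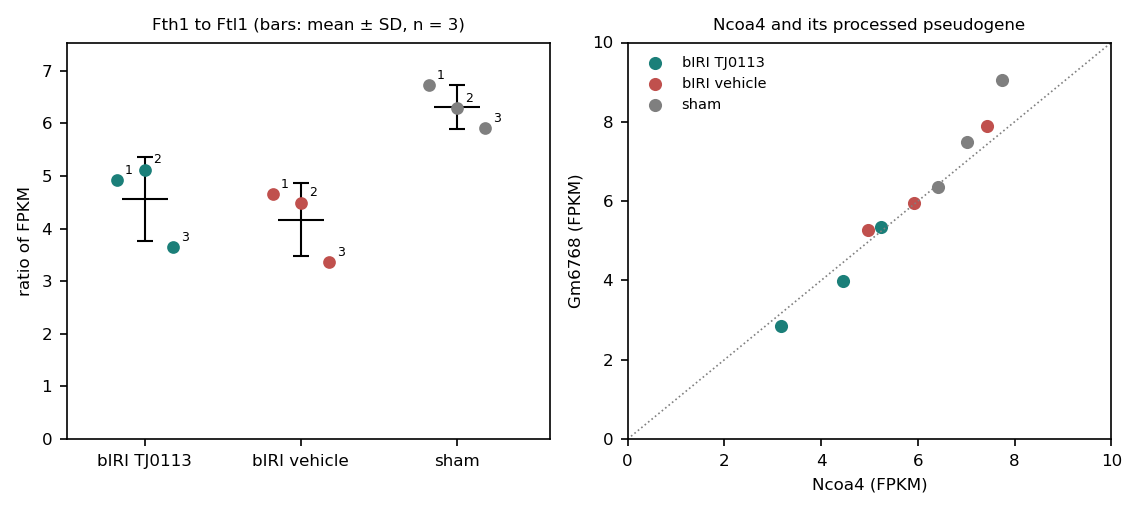
Left, the ratio of Fth1 to Ftl1 FPKM in each library (points, numbered by library) with the mean and SD of each group (bars). Right, FPKM of the processed pseudogene Gm6768 against FPKM of Ncoa4 in each library, with the dotted line of equal values. The ratio is 3.37 to 5.12 in the injured libraries and 5.90 to 6.73 in sham, and the Ncoa4 points follow the line of equal values.

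Of the export and haem genes, Slc40a1 (ENSMUSG00000025993, chr1:45908068-45926523, minus strand) encodes ferroportin. Its level was 9.86, 6.89 and 9.60 FPKM in TJ0113, 11.4, 7.82 and 12.1 FPKM in vehicle, and 4.41, 4.58 and 5.03 FPKM in sham. Every injured library lay above every sham library, and library 2 was the lowest in each injured group. The mean was 8.78 ± 1.65 FPKM in TJ0113, 10.4 ± 2.30 FPKM in vehicle and 4.67 ± 0.321 FPKM in sham (n = 3 each), which is 1.88 and 2.23 times the sham mean. Slc40a1 rose by a log2 difference of 0.51 ± 0.18 in TJ0113 against sham (limma, adjusted p = 0.0152) and of 0.70 ± 0.18 in vehicle against sham (adjusted p = 0.0100). The TJ0113 call was lost without TJ0113 library 3 (adjusted p = 0.0612), sham library 2 (0.0597) or sham library 3 (0.0507), and the vehicle call held in all 9 fits that left out a library.

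Cp (ENSMUSG00000003617, chr3:19957054-20009145, plus strand) encodes ceruloplasmin, a copper-carrying ferroxidase of plasma that many cells also make during inflammation. Its level was 40.1, 18.2 and 55.0 FPKM in TJ0113, 50.8, 20.3 and 58.5 FPKM in vehicle, and 4.08, 3.56 and 3.12 FPKM in sham. The lowest injured library was more than 4 times as high as the highest sham library, and library 2 was the lowest of both injured groups. The mean was 37.7 ± 18.5 FPKM in TJ0113, 43.2 ± 20.2 FPKM in vehicle and 3.59 ± 0.479 FPKM in sham (n = 3 each). This was the largest difference among the members. Cp rose 10.5-fold by its means in TJ0113 against sham, with a log2 difference of 2.69 ± 0.44 (limma, adjusted p = 0.00742). In vehicle against sham it rose 12.0-fold, with a log2 difference of 2.85 ± 0.44 (adjusted p = 0.00687). Both calls held in all 9 fits that left out a library, and Cp was the lowest member in sham and the third highest in both injured groups. Within the injured groups its order over the libraries was close to that of the macrophage sum given above, whose part in the result was not tested. Lcn2, a kidney injury marker described below, had the same order over these libraries as Cp. The summed fibroblast markers were also highest in vehicle library 3 and lowest in vehicle library 2. The part of these was not tested either. The summed level of 4 hepatocyte markers did not follow Cp. That sum was 20.7 to 36.9 FPKM in TJ0113, 16.4 to 55.7 FPKM in vehicle and 27.5 to 34.2 FPKM in sham. Serpina1a made up most of it in every injured library. Of the 3 hepatocyte markers tested, 2 fell in TJ0113 against sham, 1 fell in vehicle against sham and 0 rose.

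**Figure D3:**
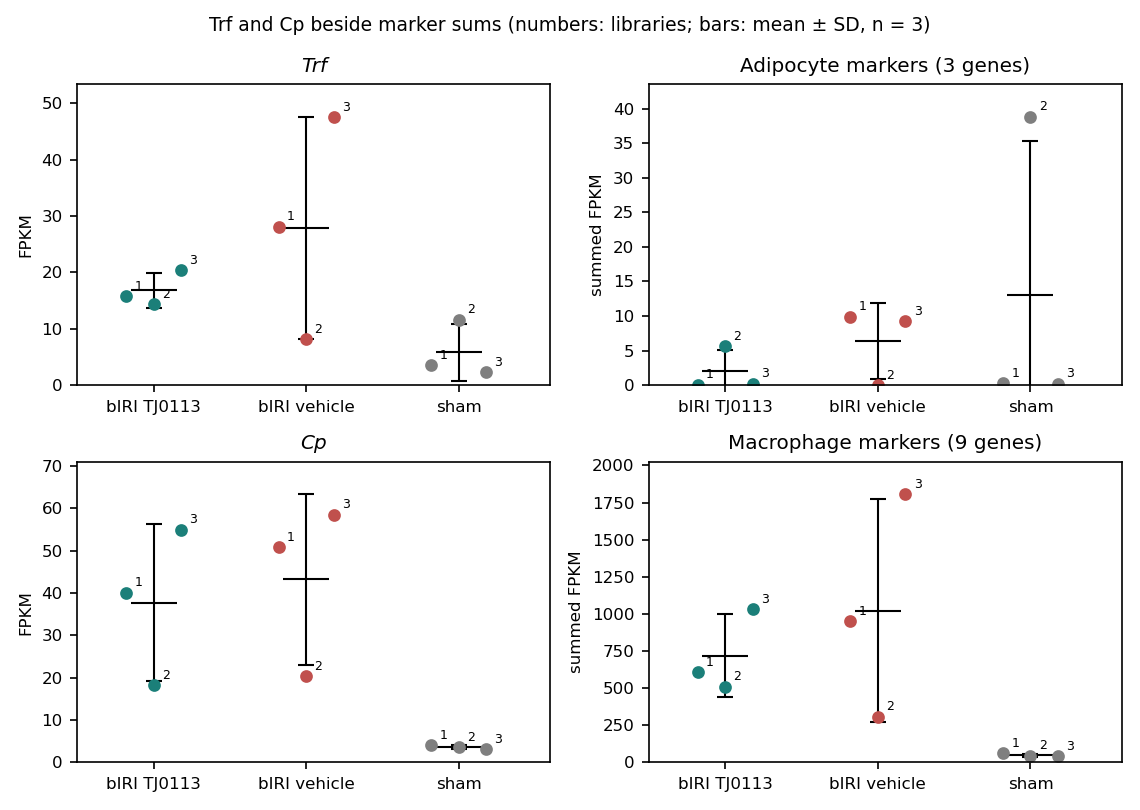
FPKM of Trf and Cp (left) beside the summed FPKM of 3 adipocyte and 9 macrophage markers (right) in each library (points, numbered by library), with the mean and SD of each group of 3 (bars). Sham library 2 is the highest sham library for Trf and for the adipocyte sum (38.8 FPKM), and vehicle library 2 is the lowest injured library for Trf and for the macrophage sum (308 FPKM).

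Hmox1 (ENSMUSG00000005413, chr8:75093621-75100589, plus strand) encodes the inducible haem oxygenase, which opens the haem ring and releases its iron. Its level was 40.2, 27.2 and 37.0 FPKM in TJ0113, 36.7, 45.5 and 34.3 FPKM in vehicle, and 17.8, 18.8 and 19.0 FPKM in sham. Every injured library lay above every sham library. Vehicle library 2, which was the lowest injured library for Trf and for the macrophage sum, was the highest of all for Hmox1. The mean was 34.8 ± 6.75 FPKM in TJ0113, 38.8 ± 5.94 FPKM in vehicle and 18.5 ± 0.613 FPKM in sham (n = 3 each), which is 1.88 and 2.09 times the sham mean. Hmox1 rose by a log2 difference of 0.59 ± 0.17 in TJ0113 against sham (limma, adjusted p = 0.0100) and of 0.72 ± 0.17 in vehicle against sham (adjusted p = 0.00837). Both calls held in all 9 fits that left out a library and were lost with median-ratio scaling (adjusted p = 0.134 and 0.0695). The summed level of 6 erythroid markers, which read blood left in the tissue, was 36.4 to 153 FPKM in TJ0113, 50.4 to 82.0 FPKM in vehicle and 59.5 to 109.7 FPKM in sham, and 0 of the 5 erythroid markers tested passed in either comparison with sham.

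The order of the members by mean level was the same in both injured groups: Fth1, Ftl1, Cp, Hmox1, Trf, Slc11a2, Tfrc, Slc40a1 and Ncoa4, from high to low. In TJ0113 the ranges of Cp and Hmox1 overlapped, as did those of neighbours from Trf to Slc40a1, while the other neighbours stood apart. In vehicle all neighbours from Cp to Slc40a1 overlapped. In sham the order was Fth1, Ftl1, Hmox1, Slc11a2, Tfrc, Ncoa4, Trf, Slc40a1 and Cp, and Cp stood apart below Slc40a1. Proximal tubule cells are the main cells of the cortex, and the summed level of 8 of their markers was 2054, 1803 and 1203 FPKM in TJ0113, 975, 1980.4 and 919.8 FPKM in vehicle, and 2381, 2643 and 2306 FPKM in sham. All 8 markers were tested, 3 fell in TJ0113 against sham, 4 fell in vehicle against sham and 0 rose. Within the vehicle group library 2 lay nearest to sham in this sum and in the macrophage sum, and the part of this in the members' differences was not tested.

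The TJ0113 group was set against the vehicle group to ask how the compound bears on these genes in the injured kidney. All 9 members overlapped between the 2 groups, where 7.35% of all genes tested did not overlap, and limma called 0 members and 0 genes of 15453. At an unadjusted p under 0.05 there were 927 genes, or 6%, and 1 member. That number of genes was 320 without vehicle library 1, 3702 without vehicle library 2, 1413 without vehicle library 3 and 382 in a fit of these 2 groups alone. The member was Ncoa4, with a log2 difference of -0.40 ± 0.18 (unadjusted p = 0.0400, limma adjusted p = 0.796) and a mean of 0.701 times that of vehicle. The sign held in all 9 fits that left out a library, with a difference of -0.60 to -0.20, and the pseudogene Gm6768 differed by -0.53 ± 0.21 (limma, adjusted p = 0.796).

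The intervals show what size of difference the fit of all 9 libraries leaves possible. They rest on 1 estimate of spread per gene, shared by all 3 groups. The sham libraries varied least (median SD 0.09, against 0.19 in TJ0113 and 0.27 in vehicle). The intervals may therefore be too narrow for TJ0113 against vehicle. For Hmox1 the log2 difference of TJ0113 against vehicle was -0.13 ± 0.17, with a 95% interval of -0.51 to 0.25, and for Slc40a1 it was -0.19 ± 0.18, with an interval of -0.60 to 0.23. For Slc11a2 it was 0.07 ± 0.14 (-0.24 to 0.38) and for Ftl1 0.17 ± 0.21 (-0.30 to 0.64). The intervals were wider for Fth1, at 0.30 ± 0.30 (-0.38 to 0.97), and for Tfrc, at -0.09 ± 0.32 (-0.81 to 0.62). They were widest for Cp, at -0.16 ± 0.44 (-1.15 to 0.83), and for Trf, at -0.38 ± 0.62 (-1.76 to 1.01), the 2 members that differed most between libraries of 1 group. Limma's adjusted p for these 8 members was 0.854 to 0.983. A log2 difference of 1 in either direction lay outside the interval of this shared fit for 7 of the 9 members. Intervals from a fit of these 2 groups alone are not given. The interval of Cp reached below -1, and that of Trf passed 1 in both directions.

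**Figure D4:**
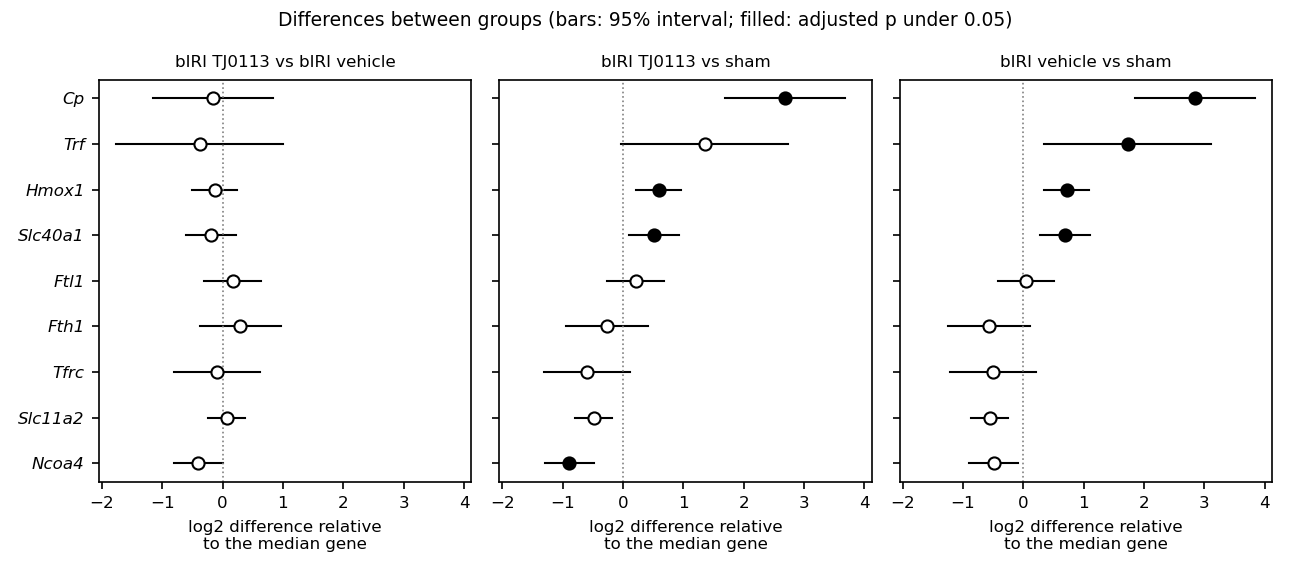
Log2 difference of each member relative to the median gene (points) with its 95% interval (lines), for TJ0113 against vehicle, TJ0113 against sham and vehicle against sham; filled points have an adjusted p under 0.05. Filled points stand at Cp, Hmox1, Slc40a1 and Ncoa4 for TJ0113 against sham and at Cp, Trf, Hmox1 and Slc40a1 for vehicle against sham, and no point is filled for TJ0113 against vehicle.

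Fth1, Ftl1, Hmox1 and Slc40a1 are also known as targets of the transcription factor NRF2. Of these 4, Hmox1 and Slc40a1 passed against sham in both injured groups, the ferritins passed in neither, and none passed in TJ0113 against vehicle. Of all genes tested, 34.8% passed in TJ0113 against sham, 36.7% in vehicle against sham and 0% in TJ0113 against vehicle, and both calls of Hmox1 were lost with median-ratio scaling.

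The rest of the iron pathway was read from 6 lists of 64 further genes, of which 53 were tested. In TJ0113 against sham 15 rose and 9 fell, where 28.9% of all genes tested rose and 5.92% fell. The vehicle group against sham gave 10 that rose and 6 that fell, where 31.3% of all genes tested rose and 5.42% fell. With median-ratio scaling these counts became 7 and 14 in TJ0113, and 6 and 14 in vehicle, and with equal FPKM sums 12 and 8, and 16 and 3. Among all 15453 genes, median-ratio scaling gave 2672 up and 3165 down in TJ0113, and 2380 up and 2470 down in vehicle. Equal FPKM sums gave 3455 up and 622 down among all genes in TJ0113, and 5775 up and 571 down in vehicle. Which direction was the more frequent therefore depended on the scaling. The calls of Lcn2, Lrp2 and Steap1 below were far larger than the shift of the median gene, and many of the others were not. In TJ0113 against vehicle limma called 0 of the 53, and 2 had an unadjusted p under 0.05.

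Of the 3 iron sensors 0 passed in any comparison on the values as deposited. In TJ0113 against sham 2 fell after median-ratio scaling and 2 after quantile normalization, where 3165 and 2854 of all 15453 genes fell. In vehicle against sham 1 fell with median-ratio scaling, where 2470 of all genes fell. Aco1, which encodes iron regulatory protein 1, was at 71.3 ± 19.0 FPKM in TJ0113, 78.5 ± 18.8 FPKM in vehicle and 92.3 ± 3.08 FPKM in sham (n = 3 each). Ireb2, which encodes iron regulatory protein 2, was at 8.81 ± 1.08 FPKM in TJ0113, 10.9 ± 2.0 FPKM in vehicle and 11.1 ± 0.685 FPKM in sham (n = 3 each), with a limma adjusted p of 0.132 in TJ0113 against sham. For Aco1 and Ireb2 every TJ0113 library lay below every sham library, as was so for 14.6% of all genes tested. Fbxl5, the iron-binding subunit of the ligase that degrades IRP2, was at 6.62 ± 0.863 FPKM in TJ0113, 8.35 ± 1.78 FPKM in vehicle and 7.48 ± 0.303 FPKM in sham (n = 3 each).

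Of 17 other transport, reduction and chaperone genes tested, 7 rose and 3 fell in TJ0113 against sham (28.9% and 5.92% of all genes), and 5 rose and 3 fell in vehicle against sham (31.3% and 5.42% of all genes). With median-ratio scaling 4 rose and 3 fell in TJ0113, and 3 rose and 3 fell in vehicle. Among all 15453 genes, that scaling gave 2672 up and 3165 down in TJ0113, and 2380 up and 2470 down in vehicle. Lcn2, a binder of iron-carrying siderophores and a marker of kidney injury, was at 44.6, 23.5 and 93.9 FPKM in TJ0113, 66.4, 27.6 and 111 FPKM in vehicle, and 1.33, 0.454 and 1.60 FPKM in sham. It rose by 4.26 ± 0.56 on the log2 scale in TJ0113 against sham (limma, adjusted p = 0.00567) and by 4.56 ± 0.56 in vehicle against sham (adjusted p = 0.00398). Steap1, of a family of metal reductases, rose by 1.74 ± 0.50 in TJ0113 and by 1.81 ± 0.50 in vehicle (limma, adjusted p = 0.0183 and 0.0167). Slc25a37, the mitochondrial iron importer mitoferrin 1, was at 12.7 ± 1.58 FPKM in TJ0113, 11.2 ± 1.75 FPKM in vehicle and 7.25 ± 0.439 FPKM in sham (n = 3 each), and passed in both comparisons with sham (limma, adjusted p = 0.00993 and 0.0196). Lrp2, the endocytic receptor megalin that takes up filtered transferrin and lipocalin, fell by 1.79 on the log2 scale in TJ0113 and by 1.89 in vehicle (SE 0.34 each; limma, adjusted p = 0.0135 and 0.0131). Lrp2 is also 1 of the 8 proximal tubule markers.

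Haem synthesis gave 9 tested genes, of which 2 rose and 2 fell in TJ0113 against sham (28.9% and 5.92% of all genes), and 0 rose and 2 fell in vehicle against sham (31.3% and 5.42% of all genes). With median-ratio scaling 0 rose and 2 fell in TJ0113, and 0 rose and 3 fell in vehicle. Among all 15453 genes, that scaling gave 2672 up and 3165 down in TJ0113, and 2380 up and 2470 down in vehicle. Cpox and Fech fell in both comparisons. In vehicle against sham both calls were lost with equal FPKM sums, where 1 gene of the list rose and 0 fell. Of all 15453 genes, 5775 rose and 571 fell in that setting. Cpox, which makes protoporphyrinogen, was at 7.71 ± 2.96 FPKM in TJ0113, 8.90 ± 2.39 FPKM in vehicle and 16.5 ± 1.88 FPKM in sham (n = 3 each). Fech, which inserts iron into protoporphyrin, was at 8.01 ± 1.52 FPKM in TJ0113, 8.22 ± 1.32 FPKM in vehicle and 12.8 ± 1.09 FPKM in sham (n = 3 each). Limma's adjusted p in TJ0113 and in vehicle against sham was 0.0192 and 0.0389 for Cpox, and 0.0192 and 0.0237 for Fech. Ppox, whose enzyme acts between those of Cpox and Fech, differed by 0.46 ± 0.17 in TJ0113 and by 0.13 ± 0.17 in vehicle against sham, and passed in TJ0113 (limma, adjusted p = 0.0164 and 0.0776). Uros, an earlier enzyme of the pathway, did not pass (adjusted p = 0.511 and 0.0887).

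Of 9 genes of haem scavenging, transport and breakdown tested, 3 rose in TJ0113 against sham and 4 in vehicle against sham (28.9% and 31.3% of all genes), and 0 fell in either. With median-ratio scaling the counts were 2 up and 1 down in TJ0113, and 2 up and 2 down in vehicle. Among all 15453 genes, that scaling gave 2672 up and 3165 down in TJ0113, and 2380 up and 2470 down in vehicle. Flvcr1, a haem and choline transporter of the plasma membrane, was at 4.93, 6.25 and 8.82 FPKM in TJ0113, 12.2, 7.33 and 10.7 FPKM in vehicle, and 2.19, 2.23 and 4.07 FPKM in sham. Its log2 difference was 0.74 ± 0.26 in TJ0113 against sham (limma, adjusted p = 0.0195), 1.25 ± 0.26 in vehicle against sham (adjusted p = 0.00878) and -0.51 ± 0.26 in TJ0113 against vehicle (adjusted p = 0.796). Lrp1, a receptor for the haem-haemopexin complex that macrophages and fibroblasts carry, rose by 1.38 ± 0.41 and 1.35 ± 0.41 in TJ0113 and in vehicle against sham (limma, adjusted p = 0.0173 and 0.0178). The summed level of 5 fibroblast markers moved with it, at 116 to 183 FPKM in TJ0113, 56.2 to 245 FPKM in vehicle and 11.8 to 18.3 FPKM in sham, and its part was not tested. Blvrb, which reduces biliverdin, passed in both comparisons with sham (limma, adjusted p = 0.0348 and 0.0370), with 0.40 ± 0.20 in TJ0113 and 0.34 ± 0.20 in vehicle. Bach1, the haem-sensing repressor of Hmox1, differed by 0.18 ± 0.18 in TJ0113 and 0.33 ± 0.18 in vehicle, and passed in vehicle (adjusted p = 0.0755 and 0.0260).

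In iron-sulfur cluster assembly 12 genes were tested, of which 2 rose and 4 fell in TJ0113 against sham (28.9% and 5.92% of all genes), and 0 rose and 1 fell in vehicle against sham (31.3% and 5.42% of all genes). With median-ratio scaling 0 rose and 5 fell in each comparison. Among all 15453 genes, that scaling gave 2672 up and 3165 down in TJ0113, and 2380 up and 2470 down in vehicle. With equal FPKM sums 1 rose and 3 fell in TJ0113, and 2 rose and 0 fell in vehicle, where the call of Nfs1 was lost. Equal sums gave 3455 up and 622 down among all genes in TJ0113, and 5775 up and 571 down in vehicle. Nfs1, the desulfurase that supplies the sulfur, was at 18.4 ± 4.46 FPKM in TJ0113, 20.3 ± 6.08 FPKM in vehicle and 31.7 ± 1.11 FPKM in sham (n = 3 each), and fell in both (limma, adjusted p = 0.0286 and 0.0478). Hspa9, the mitochondrial chaperone mortalin, fell in TJ0113 against sham (-1.07 ± 0.26; limma, adjusted p = 0.0373). In vehicle against sham it differed by -0.85 ± 0.26 relative to the median gene and did not pass on the values as deposited (limma, adjusted p = 0.108). Isca2, a late assembly factor, was at 20.6 ± 3.39 FPKM in TJ0113, 16.7 ± 1.00 FPKM in vehicle and 12.7 ± 0.722 FPKM in sham (n = 3 each), and passed in TJ0113 against sham (adjusted p = 0.0112). Lyrm4, a partner of Nfs1 named here after its values were seen, was 1 of the 2 genes with an unadjusted p under 0.05 in TJ0113 against vehicle. Its level was 10.5, 8.70 and 9.99 FPKM in TJ0113, 6.98, 8.48 and 6.45 FPKM in vehicle, and 9.23, 8.30 and 9.49 FPKM in sham, with a log2 difference of 0.41 ± 0.13 in TJ0113 against vehicle (unadjusted p = 0.0186, limma adjusted p = 0.796).

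Hepcidin, the liver hormone that removes ferroportin from the cell surface, was barely measured in the cortex. Hamp was at 0 to 0.0285 FPKM in TJ0113, 0 to 0.0706 FPKM in vehicle and 0 to 0.0351 FPKM in sham, and was not tested, nor were Hamp2, Hjv, Tmprss6 and Erfe. Of the 3 genes of its axis that were tested, Hfe, a partner of the transferrin receptors, was at 10.3 ± 0.647 FPKM in TJ0113, 11.9 ± 3.46 FPKM in vehicle and 5.02 ± 0.582 FPKM in sham (n = 3 each). It rose in both (limma, adjusted p = 0.0107 and 0.00878). Bmp6, a ligand that induces hepcidin in the liver, was at 27.8 ± 9.74 FPKM in TJ0113, 26.5 ± 8.0 FPKM in vehicle and 15.0 ± 1.88 FPKM in sham (n = 3 each), and did not pass (adjusted p = 0.0513 and 0.0605). Neo1, a receptor that binds hemojuvelin, was the other gene with an unadjusted p under 0.05 in TJ0113 against vehicle, at -0.41 ± 0.18 (unadjusted p = 0.0340, limma adjusted p = 0.796), and the groups overlapped.

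**Figure D5:**
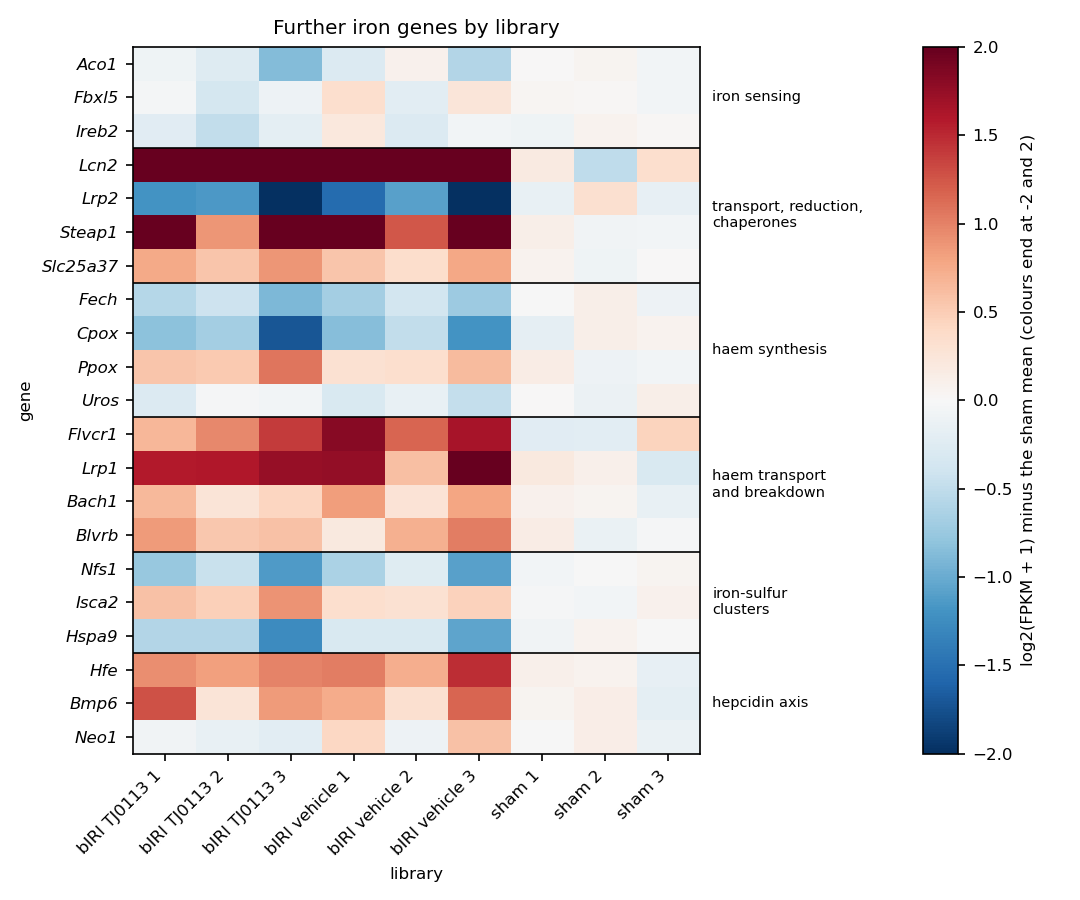
Log2(FPKM + 1) minus the sham mean (colour, red higher and blue lower, ending at -2 and 2) of the genes named from 6 further iron lists (rows) in each of the 9 libraries (columns). Lcn2, Steap1 and Hfe are higher and Lrp2, Cpox and Nfs1 lower in every TJ0113 and vehicle library than in the sham mean, and the sensors Aco1, Fbxl5 and Ireb2 lie below it in every TJ0113 library and on both sides of it among the vehicle libraries.

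Among the members themselves, libraries of the injured groups showed 2 opposed patterns. Over the 6 injured libraries Pearson's r of log2(FPKM + 1) was 0.93 between Cp and Slc40a1 and 0.94 between Fth1 and Slc11a2, while it was -0.87 between Fth1 and Cp and -0.86 between Trf and Fth1. These values are a description of 6 libraries that share their scaling and their mix of cells. Hmox1 followed neither, with r of 0.13 to Cp and 0.06 to Fth1, and nor did Ncoa4, with r of -0.26 to Cp and -0.03 to Fth1.

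For each member the 2 other genes whose levels were most alike over the 9 libraries were found among all genes tested, so that high values are the product of the search. The likest genes, by Pearson's r, were Ywhah and Tnfrsf12a for Slc40a1 (0.997 each) and Birc3 and Hspb1 for Cp (0.998 each). They were Cd1d1 (0.991) and Ikzf1 (0.974) for Trf, Gpr160 (0.976) and Aldh1a1 (0.965) for Hmox1, and Acadl (0.947) and Ciao2a (0.942) for Tfrc. For the ferritins they were Akr7a5 (0.979) and Mettl26 (0.966) for Fth1, and Pex14 (0.971) and Dgcr6 (0.958) for Ftl1. They were Rgl1 (0.975) and Pex5 (0.966) for Slc11a2, and Gm6768 (0.990) and Ndrg3 (0.978) for Ncoa4. Within the 6 injured libraries r stayed at 0.897 or above for each of these genes except Aldh1a1 with Hmox1 (0.743).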

How the data were processed

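Per the labels' protocols, renal cortex RNA was isolated with TRIzol, and an Abclonal kit turned 1 µg of it into paired-end mRNA libraries. HISAT2 is named in the submitters' processing notes, without a version, and the labels used here state no counting tool, genome build or annotation. The authors deposited FPKM for each gene and library, which were used unscaled; they sum to 330815 to 405810 per library, and fragment totals were not used here. Symbols came from GENCODE M21, which names 33893 of 34669 identifiers (97.8%). Treatment labels write TJ013 for what the series calls TJ0113, and both were read as 1 compound.

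Genes that averaged 0.5 FPKM or more were tested with limma 3.58.1 (R 4.3.3, variance trend, no covariates), using log2(FPKM + 1) of the 9 libraries in 1 model. On this scale, differences of low genes are understated. The test was tried on simulated data, in which a gene had the same spread in every group and libraries were independent. That trial does not show how the test behaves with the unequal spreads of these groups. Tables and figures used Python 3.11.15, pandas 2.3.3, scipy 1.17.1 and matplotlib 3.10.9. Near copies were sought with BLAST 2.17.0 among GENCODE M21 transcripts (GRCm38), and the iron-responsive elements were read from the same transcripts. Trf shares exons with an overlapping gene model, which was not used here.

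The members, the further iron lists and the cell type markers were chosen with earlier results of these data known. All 9 members are named, with up to 4 genes of each further list by smallest p in vehicle against sham, and the 2 genes most like each member; 1 gene that meets this rule is not reported here and stays in the counts. The alternatives were another pseudocount (0.1), no filter, median-ratio scaling, quantile normalization, equal FPKM sums, only the 2 groups compared, a replicate block and leaving out each library.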

Additional observations from a re-analysis of the deposited data

How the results depend on the processing

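Of 432 refits of the members' differences under 7 alternative settings and 9 fits without 1 library, 387 kept both the sign and the side of the threshold, 19 lost a call, 9 gained one and 17 changed sign, none of the last past the threshold. The lost and gained calls of members are given with each gene. Sign changed for Fth1 in TJ0113 against sham with quantile normalization (0.038), and for Ftl1 in vehicle against sham with a pseudocount of 0.1 (-0.046) and in the median-ratio setting (-0.072), and in TJ0113 against vehicle with quantile normalization (-0.00169). Over the fits without 1 library, Ftl1 in vehicle against sham ran from -0.21 to 0.26. In TJ0113 against vehicle Tfrc ran from -0.54 to 0.18, Trf from -0.97 to 0.065, Ftl1 from -0.041 to 0.43, Slc11a2 from -0.066 to 0.25, Hmox1 from -0.29 to 0.077 and Cp from -0.53 to 0.25. The number of members called in TJ0113 against sham was 2 to 6, with 6 without vehicle library 2 and 2 (Cp and Hmox1) without TJ0113 library 3, sham library 2 or sham library 3. The cause was not tested.

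The number of genes called moved far more. With no filter it was 3205 in TJ0113 against sham and 2933 in vehicle against sham. Without 1 library it ran from 1272 (without sham library 2) to 7313 (without vehicle library 2) in TJ0113 against sham, with 1429 without TJ0113 library 3, 1469 without sham library 3, 2921 without sham library 1 and 3342 without TJ0113 library 1. In vehicle against sham it ran from 862 (without sham library 2) to 8789 (without vehicle library 2), with 1022 without sham library 3, 2565 without vehicle library 3, 2661 without sham library 1 and 3198 without vehicle library 1. Genes higher and lower numbered 4469 and 915 in TJ0113 against sham as deposited, against 2672 and 3165 after median-ratio scaling, 2391 and 2854 after quantile normalization and 3455 and 622 with equal FPKM sums. In vehicle against sham they numbered 4839 and 837 as deposited, against 2380 and 2470, 2041 and 2320, and 5775 and 571 in the same order of settings. TJ0113 against vehicle gave 0 genes under each of these settings.

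Replicate numbers were not used to pair the samples in the main fit. Deviations from the group means of same-numbered libraries 1, 2 and 3 correlated at -0.06, 0.50 and 0.56 between TJ0113 and vehicle. They correlated at -0.15, 0.03 and 0.03 between TJ0113 and sham, and at -0.08, -0.08 and -0.24 between vehicle and sham. Libraries 2 and 3 of the 2 injured groups thus deviated together, and whether they share a pairing or batch was not tested. With the replicate number as a block 6062 genes were called in TJ0113 against sham, 6394 in vehicle against sham and 0 in TJ0113 against vehicle, and the members called were the same 4, 4 and 0. Fragment totals were not used here, so no limit set by depth is given for single values.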
